A study of Mus musculus with 12 samples.

Results

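NIH/3T3 cells, an established line of mouse embryonic fibroblasts, were compared after 72 h in medium conditioned by macrophages labelled PHD2cko or WT, with 3 libraries per medium, 6 of the 12 libraries of the series. The other 6 libraries are of the bone marrow-derived macrophages (BMDMs) themselves, 3 labelled PHD2cko and 3 WT. The macrophages labelled PHD2cko carried a conditional knockout of PHD2 driven by Cre from the lysozyme M locus (LysMCre), which acts in myeloid cells. Those labelled WT carried LysMCre without it, and the rest of the genotype was shared by both kinds of macrophages, whereas the fibroblasts carried neither allele. Both media had been conditioned for 24 h in the presence of 2% foetal calf serum (FCS) and of L929-conditioned medium, the source of growth factor for the macrophages, and both groups of fibroblasts had first been starved in 0.1% FCS for 48 h. The sources used here do not say whether the 3 libraries of a group came from separate cultures or animals. Nor do they give the oxygen level used for the medium. The p-values of single genes thus measure the spread between libraries within groups, which may be technical. That spread was estimated over all 12 libraries, those of BMDMs included, and not over the fibroblast libraries alone.

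PHD2, encoded by Egln1, is the oxygen sensor that marks HIF transcription factors for degradation. Fibroblasts respond to the medium of neighbouring macrophages through receptors, through nutrient and metal sensors and through the tension of their cytoskeleton. Their answer can be seen in the genes of matrix, contraction, lipid synthesis and division, for which NIH/3T3 has long served as a model.

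As expression in the libraries can also come from macrophages carried over with the medium, genes were split by a fixed rule. A gene was called fibroblast-intrinsic when its mean CPM (counts per 1000000 counts, over the total count) in the 6 BMDM libraries was under 10 times its mean in the 3 fibroblast libraries in WT medium, and macrophage-type otherwise. By this rule 18802 of the 32544 deposited genes were fibroblast-intrinsic, and of the 14285 genes with enough counts to be tested 13081 were. The remaining 1204 were macrophage-type and were kept apart. The rule used the WT medium values, which also enter the fold changes. Just inside the limit lay Prkcd, with a ratio of 9.99, and Bhlhe41 at 9.97, and just outside Naip5 at 10.02 and Mcl1 at 10.03.

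The 6 fibroblast libraries held from 15516465 to 25199770 counts. Egln1 gave 54.9, 48.8 and 48.2 CPM in fibroblasts in WT medium and 51.5, 54.0 and 52.8 CPM in the medium labelled PHD2cko. In the BMDM libraries it was higher with the PHD2cko label, at 69.6 ± 1.77 against 55.4 ± 0.574 CPM (mean ± SD of 3 libraries), or by 0.33 on the log2 scale (quasi-likelihood test of edgeR, Benjamini-Hochberg adjusted p = 0.0020). These values are summed over the whole gene and cannot show the loss of an exon, so the deletion was not checked here and directions follow the label of the medium. The 15 fibroblast markers summed to between 36757 and 44524 CPM in all 6 libraries. The 23 macrophage markers summed to 28.6 to 30.4 CPM in WT medium and to 234 to 1034 CPM in medium labelled PHD2cko, with no marker at 0 in either group and all 23 higher. Relative to BMDMs this was 0.0589, 0.0625 and 0.0626% of the library in WT medium and 2.37, 0.536 and 2.13% in replicates 1, 2 and 3 of the medium labelled PHD2cko (mean difference 1.62 percentage points, two-sided p = 0.1 in an exact permutation test, where groups of 3 can give no smaller value). The lowest share has a 95% Wilson interval of 0.0540 to 0.0641% and the highest one of 2.33 to 2.40%, for counting error only. Replicate 2 of the medium labelled PHD2cko thus held the least macrophage signal of its group. Markers of T cells, neutrophils and epithelium summed to under 5 CPM in every fibroblast library, with Cd3e, Ly6g and Epcam at 0. B cell and plasma cell markers summed to 4.25 to 5.88 CPM in WT medium and 13.0 to 14.8 CPM in the other, with Igkc and Pax5 at 0, and endothelial markers to 33.4 to 54.7 CPM over both groups, with Cldn5 at 0. In WT medium, replicate 1 stood apart from replicates 2 and 3 (their counts differed from it by a chi-square of 24.8 and 26.9 for each degree of freedom, and from each other by one of 2.35). The part of carried-over RNA in each result below was not tested beyond the values given beside it.

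Among fibroblast-intrinsic genes, 660 were higher and 958 lower in fibroblasts in medium labelled PHD2cko at an adjusted p under 0.05 (edgeR's quasi-likelihood test, as for every adjusted p in this text). These are 5.05% and 7.32% of the members tested, beside 8.93% higher and 6.75% lower over all genes tested. The counts of each gene list below are to be set beside the 5.05% and 7.32% of all members. Most changes were small: a 2-fold change was reached by 33 genes that were higher and 32 that were lower, and the median log2 fold change was 0.31 among the higher and -0.29 among the lower ones. When the macrophage share of each library was subtracted before the test, 605 of the 660 and 789 of the 958 kept their direction and the threshold. Leaving out replicate 1 in WT medium raised the counts to 1105 and 1069, and leaving out replicate 1 or 3 of the medium labelled PHD2cko lowered them to 344 and 491 or 304 and 459. Fitted without the BMDM libraries, the 6 fibroblast libraries gave 276 and 346. For the gene lists that follow, the count is also given, mostly in brackets, where a left-out library or another fit moved it by more than 1.5 times. For counts of up to 3 this is the range over left-out libraries, and other fits appear where they moved the count by more than 1 gene. Libraries are named WT 1 to WT 3 and cko 1 to cko 3 there, after medium and replicate. The calls moved with the ratio of the BMDM level to that in WT medium. The WT medium level enters both this ratio and the fold change, so they are not independent. Where the BMDM level was under 0.1 times that of fibroblasts, 5.53% of 1880 genes were higher and 11.5% lower (104 and 216, or 124 and 163 after subtraction). Between 3 and 10 times, 12.6% of 913 genes were higher and 3.50% lower (115 and 32, or 73 and 76 after subtraction). The median of this range was 0.09, and 0.01 after subtraction. Macrophage-type genes were 51.2% higher and 0.498% lower, at a median log2 fold change of 1.53, which subtraction brought to 0.41.

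**Figure D1:**
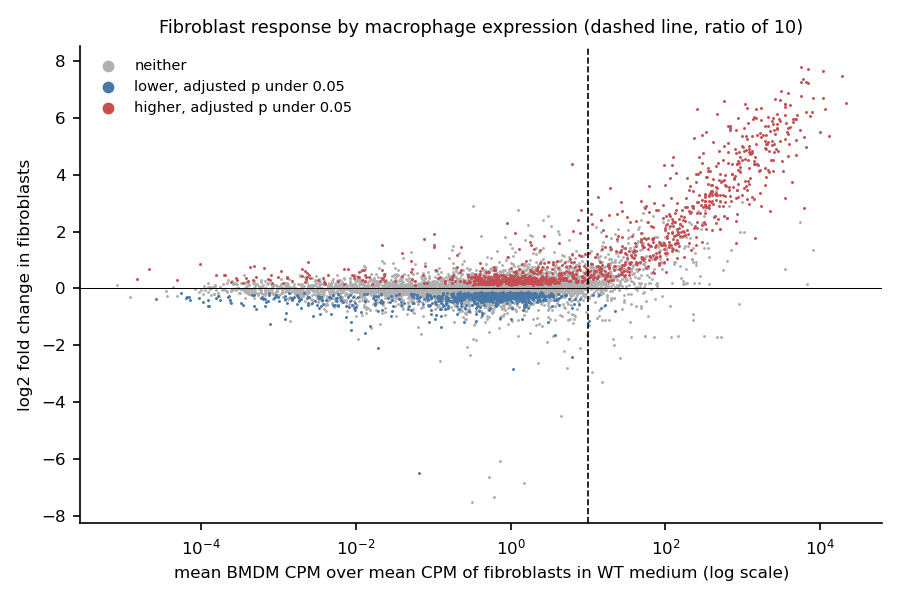
Each point is a gene tested, with the ratio of its mean BMDM CPM to its mean CPM in fibroblasts in WT medium on the x axis (log scale, genes with a ratio of 0 or without WT counts left out) and its log2 fold change in fibroblasts, medium labelled PHD2cko over WT medium, on the y axis. To the left of the dashed line at 10 lie the fibroblast-intrinsic genes, 660 of them higher (red) and 958 lower (blue). To its right fold changes climb with the ratio, and the WT medium level enters both axes.

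Txnip had one of the largest rises. Txnip encodes an alpha-arrestin that binds thioredoxin and limits glucose uptake, and its promoter is a known readout of MondoA, a factor that senses glucose phosphates and acidity. It was at 50.5, 54.1 and 59.2 CPM in WT medium and at 192, 226 and 219 CPM in medium labelled PHD2cko. All 3 libraries in that medium were above 3 times any in WT medium, with a log2 fold change of 1.96 (standard error, SE, 0.071, adjusted p = 2.4e-08). Arrdc4, another alpha-arrestin and the other classic target of MondoA, went from 5.85, 5.84 and 5.76 to 14.1, 20.6 and 19.95 CPM, with a log2 fold change of 1.64 (SE 0.13, adjusted p = 2.5e-05). The groups did not overlap for either gene, as they did not for 30.1% of all members tested, and replicate 2, which held least macrophage RNA, had the highest value of both. BMDMs held 7.93 times as much Txnip and 1.79 times as much Arrdc4 as fibroblasts in WT medium did, and after subtraction of the macrophage share their log2 fold changes were 1.94 and 1.66. The remaining members of their family did not follow: Arrdc3 fell by 0.28 on the log2 scale (SE 0.071, adjusted p = 0.019), though it did not pass without WT 2, cko 1 or cko 3, while Arrdc1 and Arrdc2 had log2 fold changes of 0.08 and -0.16 without passing the threshold. Nor did the mRNAs of MondoA (Mlxip, 0.04) and of its partner Mlx (-0.15) pass it. This list was put together after the values were seen.

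Both promoters are shown for the E box of the carbohydrate response type that MondoA and Mlx bind in pairs. The 250 bases before the RefSeq start are printed 5′ to 3′ on GRCm38.p6, with matches to CACGNG on either strand in capitals. Txnip lies on the plus strand, with the window at chr3:96557707-96557956, and Arrdc4 on the minus strand, at chr7:68749239-68749488.
Txnip: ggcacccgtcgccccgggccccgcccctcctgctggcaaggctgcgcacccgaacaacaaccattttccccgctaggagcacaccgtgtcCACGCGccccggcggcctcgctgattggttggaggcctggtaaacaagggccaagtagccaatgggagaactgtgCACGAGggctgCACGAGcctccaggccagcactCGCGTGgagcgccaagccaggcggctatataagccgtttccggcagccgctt
Arrdc4: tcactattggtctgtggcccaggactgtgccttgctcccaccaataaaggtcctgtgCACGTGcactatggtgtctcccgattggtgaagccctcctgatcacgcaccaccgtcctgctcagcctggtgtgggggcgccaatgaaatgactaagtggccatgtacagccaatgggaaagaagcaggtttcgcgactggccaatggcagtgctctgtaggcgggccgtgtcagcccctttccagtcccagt
The Txnip window holds 4 matches, 160, 85, 74 and 52 bases before the start, and the Arrdc4 window 1, at 193 bases. Of all 32851 RefSeq promoters of this length 23.5% hold the motif at least once, so that a single match is common.

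Metallothioneins, small proteins that bind zinc and copper and whose genes respond to free zinc through the factor MTF1, rose as well. Mt2 went from 7.83, 5.40 and 5.50 CPM to 26.9, 27.1 and 37.7 CPM (log2 fold change 2.30, SE 0.17, adjusted p = 1.5e-05). Mt1 went from 29.6, 20.3 and 21.5 CPM to 37.6, 36.6 and 40.00 CPM (log2 fold change 0.69, SE 0.11, adjusted p = 9.9e-04). In both cases the lowest library in medium labelled PHD2cko was above the highest in WT medium. The genes are neighbours of similar sequence on chromosome 8, and reads may have been divided between them by estimation. Slc39a10, an importer of zinc, fell from 141, 165 and 174 to 90.3, 84.4 and 90.95 CPM (log2 fold change -0.85, SE 0.072, adjusted p = 3.8e-05). Slc30a1, the exporter of zinc at the plasma membrane and another MTF1 target, was at 2.14, 1.99 and 1.53 CPM in WT medium and 5.70, 7.69 and 5.96 CPM in the other. Its log2 fold change was 1.75 (SE 0.16, adjusted p = 6.0e-05) and 1.65 after subtraction, but with a BMDM level of 23.4 times that in fibroblasts it is macrophage-type by the rule. Among 19 fibroblast-intrinsic genes of zinc buffering and transport, gathered after the values were seen, 3 were higher (Mt1, Mt2 and the vesicular transporter Slc30a4, 0.22) and 2 lower (Slc39a10 and Slc39a3, -0.21), with a median of -0.01. With a library left out 2 to 5 were higher (5 without WT 1) and 1 to 2 lower, with 1 lower without cko 1 or cko 3 and in the fibroblast libraries alone. Mtf1 itself had a log2 fold change of -0.07 (adjusted p = 0.59).

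The promoters of both metallothioneins are shown for the core of the metal response element, TGCACNC or TGCGCNC on either strand, in capitals. The windows lie on the plus strand of GRCm38.p6, Mt2 at chr8:94172368-94172617 and Mt1 at chr8:94178839-94179088.
Mt2: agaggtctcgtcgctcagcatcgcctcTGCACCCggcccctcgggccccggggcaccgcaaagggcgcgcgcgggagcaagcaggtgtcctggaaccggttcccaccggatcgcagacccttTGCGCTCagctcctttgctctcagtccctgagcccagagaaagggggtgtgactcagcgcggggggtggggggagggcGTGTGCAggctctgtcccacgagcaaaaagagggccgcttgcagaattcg
Mt1: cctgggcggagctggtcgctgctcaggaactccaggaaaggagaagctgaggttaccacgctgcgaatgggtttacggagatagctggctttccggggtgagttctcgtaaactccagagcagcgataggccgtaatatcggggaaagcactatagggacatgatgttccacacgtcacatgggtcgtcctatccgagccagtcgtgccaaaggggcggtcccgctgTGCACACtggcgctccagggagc
Mt2, the gene with the larger rise, has 3 matches at 223, 128 and 50 bases before its start, and Mt1 has 1 at 23 bases. The cores occur in 21.4% of all promoters, and in 4 of the 5 fibroblast-intrinsic zinc genes past the threshold (Mt1, Mt2, Slc30a4 and Slc39a3). Of these, Slc39a3 was lower. As the list was gathered after the values were seen, this is no test of the motif.

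**Figure D2:**
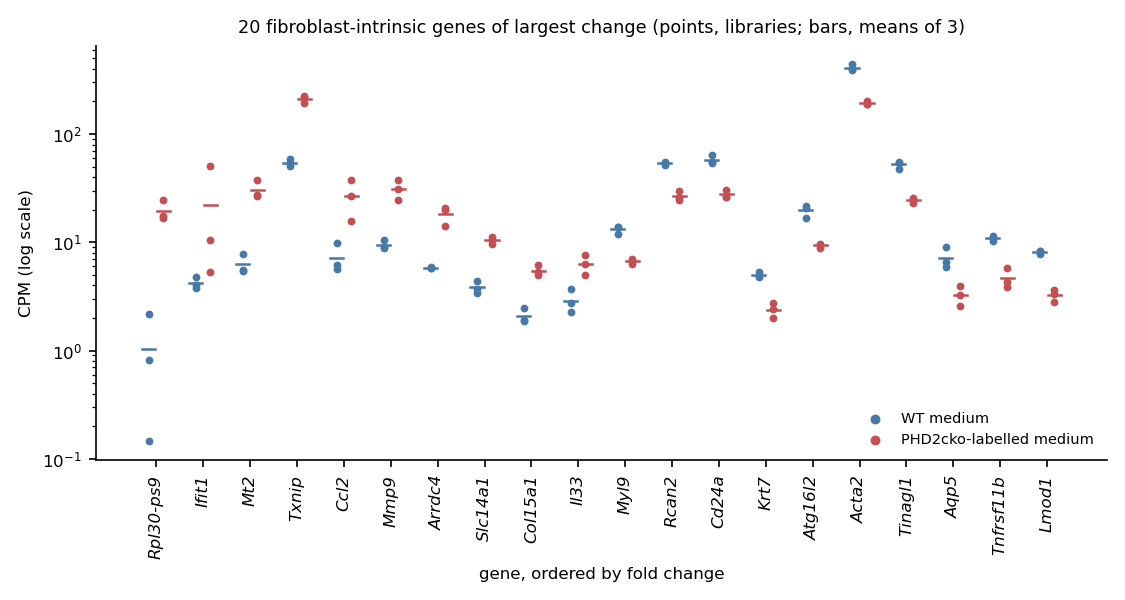
CPM on a log axis in the 6 fibroblast libraries for the 10 fibroblast-intrinsic genes of largest rise and the 10 of largest fall, ordered by fold change, with points for libraries and bars for the mean of 3. Groups do not overlap for any of the 20, as the choice of genes required, and Ifit1 shows the widest spread in medium labelled PHD2cko, from 5.26 to 50.2 CPM.

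Of the 10 genes of largest rise among members past the threshold, with 5 CPM or more in a group and separate ranges, Txnip, Arrdc4 and Mt2 are given above. Mmp9, the gelatinase that degrades basement membrane collagen, went from 8.80, 9.07 and 10.4 CPM to 31.2, 24.8 and 37.5 CPM (log2 fold change 1.73, SE 0.14, adjusted p = 2.6e-05), with BMDMs at 0.0766 times the fibroblast level. Slc14a1, a urea transporter, went from 4.43, 3.66 and 3.38 to 11.2, 10.5 and 9.59 CPM, and Col15a1, the collagen that links basement membrane to interstitial matrix, from 1.93, 1.89 and 2.48 to 5.29, 6.19 and 4.94 CPM. Il33, a nuclear alarmin of the interleukin 1 family with no BMDM counts, was at 3.66, 2.25 and 2.75 CPM and then at 5.04, 7.64 and 6.25 CPM. Their log2 fold changes were 1.45, 1.39 and 1.13. The chemokine Ccl2 and the interferon-stimulated Ifit1 are described with their groups below. Rpl30-ps9 had the largest fold of all, from 0.814, 0.145 and 2.17 to 17.6, 16.7 and 24.4 CPM, but it is a pseudogene of the ribosomal protein gene Rpl30 and its count depends on how shared reads were assigned, so its value is uncertain.

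The 10 genes of largest fall start with Lmod1, a nucleator of actin filaments in smooth muscle, at 8.39, 7.87 and 8.30 CPM in WT medium and 3.34, 3.64 and 2.81 CPM in the other. Tnfrsf11b, the secreted RANKL decoy osteoprotegerin, fell from 11.3, 11.03 and 10.3 to 3.85, 5.73 and 4.31 CPM (log2 fold change -1.24, adjusted p = 8.4e-04). Tinagl1, a matricellular protein of basement membranes, fell from 54.5, 55.1 and 47.8 to 24.6, 25.7 and 22.9 CPM (log2 fold change -1.11, adjusted p = 8.6e-05). Groups were far apart for all 3 genes. Cd24a, a small surface glycoprotein, went from 64.4, 54.8 and 53.5 to 30.4, 26.3 and 26.4 CPM, and Rcan2, an inhibitor of calcineurin, from 51.8, 54.99 and 54.1 to 29.5, 25.7 and 24.7 CPM. The water channel Aqp5, the keratin Krt7 and the autophagy-related Atg16l2 had log2 fold changes of -1.15, -1.07 and -1.08. Acta2 and Myl9 are given with the contractile genes.

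Cholesterol synthesis was the list with the most even change. Cells make cholesterol from acetyl-CoA through the mevalonate pathway, whose genes are turned on together by SREBP2 when sterol in the endoplasmic reticulum is low and turned down when it is ample. Of 24 fibroblast-intrinsic genes of this pathway and of SREBP2 targets, 23 were lower and 0 higher in medium labelled PHD2cko (95.8% lower, beside 7.32% of all members), at a median of -0.34 on the log2 scale, beside -0.02 over all members. None was higher at an unadjusted p under 0.05, nor with limma-voom or DESeq2, which each gave 23 lower, while the fit of the 6 fibroblast libraries alone gave 14. The median over the list, relative to the WT medium mean, was 0.07, 0.00 and -0.06 in WT medium. It was -0.32 in each of the 3 libraries of the medium labelled PHD2cko, whose macrophage shares were 2.37, 0.536 and 2.13%. The part of carried-over RNA in this was not tested. The list's median was -0.31 after subtraction of the macrophage share, and -0.02 in BMDMs for the PHD2cko label.

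The fall ran through the whole pathway. Hmgcs1, which makes HMG-CoA, was at 519, 495 and 473 CPM in WT medium and at 417, 418 and 422 CPM in medium labelled PHD2cko. Its log2 fold change, -0.24, was among the smaller ones. The steps from mevalonate to isoprenoids changed more. Pmvk went from 58.9, 47.95 and 44.1 to 34.4, 29.9 and 30.7 CPM (log2 fold change -0.67, SE 0.096, adjusted p = 6.4e-04), and Mvd, which makes isopentenyl pyrophosphate, from 121, 109.5 and 99.4 to 72.9, 70.3 and 69.4 CPM (log2 fold change -0.64, SE 0.070, adjusted p = 1.4e-04). Its isomerase Idi1 was at 288, 272 and 259 and 204, 200.1 and 207 CPM (log2 fold change -0.42). Squalene epoxidase, Sqle, which oxidizes squalene before the sterol rings are closed, was at 446, 436 and 417 and 367, 363 and 358 CPM, with a log2 fold change of -0.26. Behind it, the sterol reductase Tm7sf2 fell from 52.9, 45.7 and 46.1 to 31.04, 30.9 and 27.6 CPM (log2 fold change -0.69, SE 0.089, adjusted p = 3.1e-04), and the dehydrogenase Nsdhl from 164, 166 and 157 to 126, 127 and 123 CPM. In each of these genes the groups were separate, as in 30.1% of all members tested. Among targets that are not enzymes, Insig1, the retention protein that holds SREBP2 back, had a log2 fold change of -0.36 and the sterol carrier Stard4 one of -0.17. Stard4 passed the threshold in 1 of the 6 fits that left out a library. Srebf2, which encodes SREBP2, was the one member that did not pass, at -0.06 (adjusted p = 0.39).

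Hmgcs1 is shown for its sterol regulatory element, TCACNCCAC on either strand in capitals, on the plus strand of chr13:119690101-119690350 (GRCm38.p6, 250 bases before the RefSeq start).
Hmgcs1: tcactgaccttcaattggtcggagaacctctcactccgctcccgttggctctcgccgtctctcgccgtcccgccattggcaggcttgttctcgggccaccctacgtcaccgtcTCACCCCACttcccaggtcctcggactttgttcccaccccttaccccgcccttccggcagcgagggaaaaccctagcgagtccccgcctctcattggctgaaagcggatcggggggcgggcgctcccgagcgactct
The element lies 137 bases before the start. It occurs in 1.05% of all promoters, and in 1 of the 16 promoters that RefSeq gives for the 23 genes that fell, which says only that these letters are not in the other windows.

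**Figure D3:**
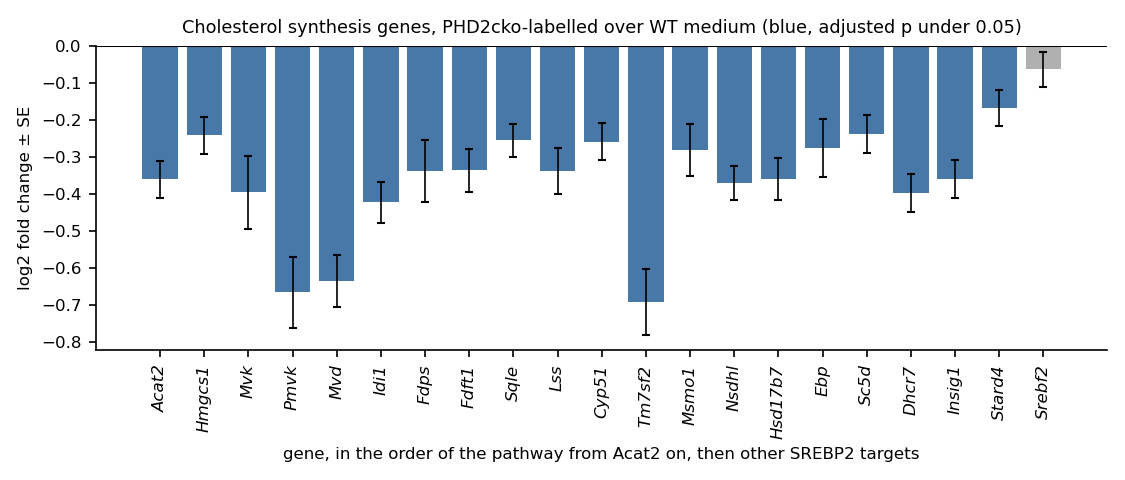
Bars give the log2 fold change of each gene, medium labelled PHD2cko over WT medium, with its standard error from the fit, for members of the list in the order of the pathway from Acat2 on and then for other SREBP2 targets. All bars shown point down, from -0.69 for Tm7sf2 to -0.06 for Srebf2, the one in grey that did not pass the threshold.

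Neighbouring lipid genes changed less. Of 36 fibroblast-intrinsic genes of fatty acid and triglyceride metabolism, with a median of -0.05, 2 were higher (2 to 5 with a library left out, 5 without WT 1, 4 with limma-voom, 4 with DESeq2) and 7 lower (1 without cko 3, 4 without cko 1, 4 in the fibroblast libraries alone), among the lower the desaturases Scd1 (-0.29) and Scd2 (-0.25), Acly (-0.17), Fads1 (-0.18) and Lpin1 (-0.40). Fasn (-0.15), Acaca (0.02), Elovl6 (-0.08), Fads2 (-0.07) and Srebf1 (0.06) did not pass the threshold. Angptl4, a secreted inhibitor of lipoprotein lipase, rose from 40.9, 39.4 and 38.1 to 63.5, 65.2 and 73.03 CPM (log2 fold change 0.77, SE 0.078, adjusted p = 8.4e-05), and the other gene higher was Cpt2 (0.23), which imports fatty acids into mitochondria. Of 10 genes of cholesterol efflux and of the oxysterol receptor LXR, 0 were higher (0 to 1 with a library left out) and 2 lower, the ubiquitin ligase Mylip (-0.52), and Scarb1 (-0.29). At an unadjusted p under 0.05, 1 was higher and 4 lower, with limma-voom 1 and 3 and with DESeq2 0 and 3. Abca1, the LXR target that exports cholesterol, had a log2 fold change of -0.01.

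Many genes of S phase and mitosis were higher. Of 49 genes of S phase 20 were higher and 0 lower (40.8%, beside 5.05% of all members), at a median of 0.26 on the log2 scale, and of 55 genes of G2 and mitosis 30 were higher and 0 lower (54.5%), with a median of 0.24. No gene of either list was lower at an unadjusted p under 0.05, nor with limma-voom or DESeq2. By sign alone, 48 of 49 and 53 of 55 were above 0. Over the S phase list the median relative to the WT medium mean was 0.08, -0.04 and -0.05 in WT medium and 0.24, 0.18 and 0.32 in medium labelled PHD2cko, so that the libraries of both media were apart. In bulk libraries a larger share of dividing cells and more of these mRNAs per cell cannot be told apart. The counts called depended on single libraries. Without cko 3, 11 genes of each list were higher, and without cko 1, 13 and 16. Without WT 3, 17 and 18 were higher, and without WT 1, 29 and 38. In the fibroblast libraries alone 14 and 15 were. The same lists had medians of 0.25 and 0.24 in BMDMs for the PHD2cko label.

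Mcm5, a subunit of the replicative helicase, went from 41.4, 39.2 and 35.1 CPM to 57.9, 53.2 and 60.4 CPM (log2 fold change 0.57, SE 0.083, adjusted p = 6.9e-04). Mcm6, of the same ring, went from 72.5, 68.5 and 66.7 to 94.4, 85.9 and 92.6 CPM (log2 fold change 0.39), and Mcm2, Mcm3, Mcm4 and Mcm7 were higher by 0.21 to 0.31. Hence all 6 subunits of the ring passed the threshold. Uhrf1, which carries DNA methylation through replication, went from 49.04, 56.5 and 48.7 to 77.4, 74.5 and 81.1 CPM (log2 fold change 0.59), and the ligase Lig1 from 45.1, 43.3 and 40.6 to 54.2, 53.3 and 57.2 CPM. In mitosis, Mki67, the marker of dividing cells, was at 97.7, 147 and 139.97 and 203, 192 and 206 CPM (log2 fold change 0.64, SE 0.12, adjusted p = 0.0035). Top2a, topoisomerase II, was at 202, 216 and 211 and 274, 259 and 278 CPM, and Ect2, which drives cytokinesis, at 28.7, 29.9 and 27.4 and 37.8, 36.3 and 37.9 CPM. The condensin subunit Ncaph and the checkpoint kinase Bub1b were higher by 0.39 and 0.38. E2f1 mRNA stood at 0.02 (adjusted p = 0.85).

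Mcm5 and Mcm6 are shown for the E2F site, TTTGGCGC or TTTCGCGC on either strand in capitals, where overlapping matches run together. The windows of 250 bases before the RefSeq start lie at chr8:75109259-75109508 on the plus strand and chr1:128359706-128359955 on the minus strand of GRCm38.p6.
Mcm5: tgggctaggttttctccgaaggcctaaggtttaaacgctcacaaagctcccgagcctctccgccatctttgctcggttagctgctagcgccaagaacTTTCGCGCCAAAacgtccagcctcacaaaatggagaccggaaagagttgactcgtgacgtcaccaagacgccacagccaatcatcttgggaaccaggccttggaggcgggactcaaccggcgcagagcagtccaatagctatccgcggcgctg
Mcm6: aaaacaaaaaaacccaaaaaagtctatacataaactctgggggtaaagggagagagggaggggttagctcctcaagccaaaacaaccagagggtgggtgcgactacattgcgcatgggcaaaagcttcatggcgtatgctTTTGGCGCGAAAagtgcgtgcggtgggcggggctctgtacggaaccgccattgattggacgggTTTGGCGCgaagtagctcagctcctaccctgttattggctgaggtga
The Mcm5 window has 2 matches that overlap, at 153 and 149 bases before the start, and the Mcm6 window has 3, of which 2 overlap. The site occurs in 0.654% of all promoters, in 5 of the 18 promoters found for the S phase genes that were higher (Dtl, Mcm5, Mcm6, Pola1 and Uhrf1) and in 1 of the 26 found for the mitotic ones (Ncapd2).

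Inhibitors of the cell cycle did not move as one. Cdkn1a, which encodes the CDK inhibitor p21, fell from 122, 110.4 and 116 to 85.2, 72.7 and 84.3 CPM (log2 fold change -0.53, SE 0.062, adjusted p = 2.0e-04), and Ccng1, cyclin G1, from 246, 257 and 258 to 172, 166 and 176 CPM (log2 fold change -0.57, SE 0.043, adjusted p = 1.7e-05). Btg2, an antiproliferative cofactor, had a log2 fold change of -0.39, and Cdkn1b (p27) one of -0.20, while Cdkn2c (-0.03) and Cdkn2d (0.15) did not pass the threshold. Of the 25 genes of cell cycle entry and CDK inhibitors, 5 were lower (3 in the fibroblast libraries alone), namely Cdkn1a, Ccng1, Btg2, Cdkn1b and Mdm2 (-0.17), and 2 higher (0 to 3 with a library left out, 0 without cko 3, 0 in the fibroblast libraries alone), Cdk6 (0.44) and the pocket protein Rbl1 (0.29), itself an inhibitor. Several of them are targets of p53, and a list of 29 fibroblast-intrinsic p53 targets was put together after this was seen. It includes Cdkn1a, Ccng1, Btg2 and Mdm2, already seen to be lower, so its count is partly fixed by that choice. Of the list, 0 were higher (0 to 1 with a library left out) and 18 lower (62.1%, beside 7.32% of all members). The median was -0.23, and 9 were lower in the fibroblast libraries alone. At an unadjusted p under 0.05, 1 was higher and 20 lower, with limma-voom 0 and 18, and with DESeq2 1 and 16. Psrc1 went from 60.4, 62.6 and 60.3 to 36.02, 36.7 and 37.7 CPM (log2 fold change -0.73, adjusted p = 1.1e-05), the proapoptotic Trp53inp1 from 63.5, 72.6 and 75.2 to 43.1, 47.6 and 40.1 CPM, and Ephx1 from 106, 104 and 104 to 70.8, 72.1 and 68.5 CPM. Bax (-0.33), Zmat3 (-0.39) and Plk2 (-0.37) were lower as well, whereas Fas, Ddb2 and Ppm1d did not pass the threshold. Trp53 mRNA itself had a log2 fold change of 0.07 (adjusted p = 0.34).

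Many contractile genes fell, Acta2 and Lmod1 by more than 2-fold. Myofibroblasts are marked by alpha smooth muscle actin and its partners, whose genes are driven by serum response factor (SRF) with MRTF when actin is polymerized. Acta2, alpha smooth muscle actin (ENSMUSG00000035783.9, chromosome 19 of GRCm38 from 34241090 to 34255590, minus strand), was at 441, 392 and 402 CPM in WT medium and 203, 188 and 189.7 CPM in medium labelled PHD2cko. The groups were far apart (log2 fold change -1.09, SE 0.057, adjusted p = 6.7e-07). Tagln, the actin-binding SM22, went from 49.2, 43.3 and 46.4 to 25.1, 23.3 and 23.2 CPM (log2 fold change -0.95, SE 0.089, adjusted p = 6.0e-05), the myosin light chain Myl9 from 13.8, 13.7 and 11.9 to 6.99, 6.25 and 6.78 CPM (log2 fold change -0.98) and the calponin Cnn2 from 450.1, 381 and 391 to 271, 274 and 261 CPM (log2 fold change -0.60). Of these, Acta2, Tagln and Myl9 were at under 0.03 times the fibroblast level in BMDMs, and Cnn2 at 0.0863 times. In all, 12 of 30 contractile genes and SRF targets were lower and 3 higher, at a median of -0.20. These are 40.0% and 10.0%, beside 7.32% and 5.05% of all members. The lower ones included Lmod1, Actg2, Mylk (-0.42), Smtn (-0.35), Tpm1 (-0.25), Tpm2 (-0.23), Myh10 (-0.29) and Srf itself (-0.18). The higher ones were Tagln2 (0.29), Csrp1 (0.32) and Csrp2 (0.26). The number higher was 1 without cko 3 and 0 in the fibroblast libraries alone. Without cko 3, 7 genes of the list were lower. Actg2 was at or under 1.07 CPM in every library and passed in none of the 6 fits that left out a library.

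Myl9 is shown for the CArG box to which SRF binds, searched by its name's pattern of CC, 6 bases A or T, and GG, and printed in capitals, on the plus strand at chr2:156775214-156775463 of GRCm38.p6.
Myl9: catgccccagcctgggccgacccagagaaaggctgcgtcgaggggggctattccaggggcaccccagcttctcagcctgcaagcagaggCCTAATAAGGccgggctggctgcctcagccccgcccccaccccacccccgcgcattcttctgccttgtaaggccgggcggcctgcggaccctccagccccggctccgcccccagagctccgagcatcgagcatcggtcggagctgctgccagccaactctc
The box begins 161 bases before the RefSeq start. It is in 1.47% of all promoters and in 3 of the 12 found for the contractile genes past the threshold, Myl9, Cnn2 and Srf.

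Targets of YAP and TEAD, which read stiffness and cell spreading, pointed the same way. Of 22, 0 were higher (0 to 1 with a library left out) and 8 lower, at a median of -0.17. The 36.4% lower stand beside 7.32% of all members. At an unadjusted p under 0.05, 1 was higher and 12 lower, and limma-voom and DESeq2 each called 1 higher, with 10 and 8 lower. Without cko 3, 3 were lower, without WT 2, 4, and without cko 1, 5, while the fibroblast libraries alone gave 5. Cyr61, a matricellular growth regulator, fell from 86.2, 81.1 and 94.1 to 54.98, 53.6 and 59.4 CPM (log2 fold change -0.64, SE 0.068, adjusted p = 1.2e-04). Ctgf, its relative and a fibrosis marker, went from 55.2, 46.6 and 44.6 to 35.05, 38.01 and 34.2 CPM (log2 fold change -0.45, adjusted p = 0.039), passing in 3 of 6 fits that left out a library. Amotl2, a feedback inhibitor of YAP, went from 361, 399 and 412 to 277, 292 and 295 CPM (log2 fold change -0.44). Gadd45b and F3, tissue factor, had log2 fold changes of -0.68 and -0.29, and Ankrd1, another common readout, one of -0.20 without passing (adjusted p = 0.12).

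**Figure D4:**
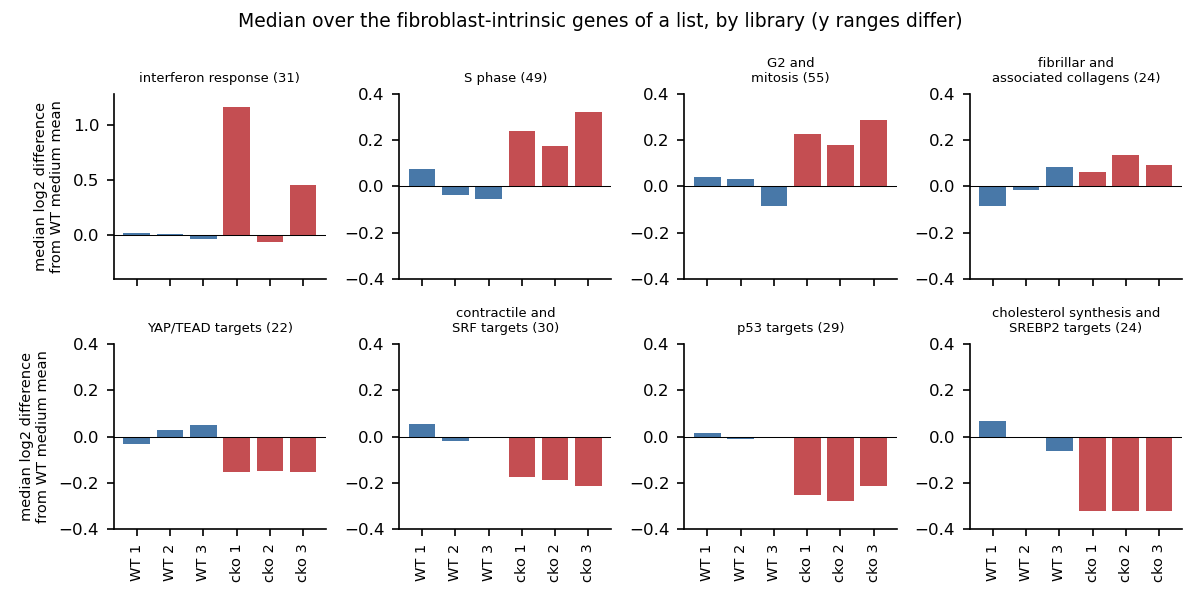
For 8 gene lists, each bar is a library and gives the median, over the fibroblast-intrinsic genes of the list, of the log2 difference in CPM from the WT medium mean (0.5 CPM added). Cholesterol synthesis lies at -0.32 in all 3 libraries in medium labelled PHD2cko, whereas interferon response lies at 1.17, -0.07 and 0.46 in replicates 1, 2 and 3.

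Fibrillar and associated collagens did not move as one. Of 24 tested 4 were higher (2 without cko 1, cko 2 or cko 3, 7 with DESeq2, 2 with the replicate block) and 1 lower (0 to 2 with a library left out), with a median of 0.15. By sign alone, 17 were above 0 and 7 below. The 16.7% higher stand beside 5.05% of all members, and the 4.17% lower beside 7.32%. Col3a1, the collagen of pliable, early scar, went from 4219, 4199 and 4597 CPM to 7600.2, 8310.4 and 7899 CPM (ENSMUSG00000026043.18, chromosome 1 of GRCm38 from 45311538 to 45349706, log2 fold change 0.87, SE 0.13, adjusted p = 8.4e-04), with no overlap and almost no BMDM expression. The regulators of fibril width Col5a3 (20.7, 21.1 and 26.4 to 36.9, 38.3 and 40.5 CPM, log2 fold change 0.77) and Col5a1 (0.19) were higher too, as was the scarce Col28a1 (0.90), and Col20a1 was lower (-0.52). Col5a1 and Col28a1 passed the threshold in 2 and 1 of 6 fits that left out a library. Col1a1, the main collagen of scar, was at 4083, 4229 and 4627 CPM and 4945, 4923 and 4759.7 CPM, a log2 fold change of 0.18 that did not pass (SE 0.11, adjusted p = 0.33), and its partner Col1a2 stood at 0.05 (adjusted p = 0.85).

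Enzymes that process collagen split. Bmp1, the proteinase that trims procollagen, was higher (139, 149.9 and 153 to 192, 205 and 188 CPM, log2 fold change 0.41, adjusted p = 0.001), with Plod2 (0.37) and Adamts2 (0.25). Lox, lysyl oxidase, which crosslinks collagen, fell from 6585, 7077 and 7214 to 4756, 5157 and 4559 CPM (log2 fold change -0.53, SE 0.11, adjusted p = 0.0062), with P3h3 (-0.25) and Plod3 (-0.18). This makes 3 higher (1 to 4 with a library left out, 1 without cko 2 or cko 3, 5 with DESeq2) and 3 lower (1 in the fibroblast libraries alone) of 26.

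The matricellular and adhesive glycoproteins, which tune how cells hold matrix, had 9 higher (3 without WT 2 or cko 3, 5 without cko 1, 5 in the fibroblast libraries alone) and 7 lower (4 without cko 1 or cko 3) of 34. Postn, periostin, rose from 175, 184 and 220.3 to 312, 352 and 328 CPM (log2 fold change 0.78, SE 0.094, adjusted p = 2.3e-04). Tenascin C (Tnc) went from 292, 360.2 and 397 to 439, 483 and 448 CPM and fibrillin 1 (Fbn1) from 105, 151 and 169 to 186, 205 and 192 CPM. Those lower included thrombospondin 1, Thbs1, at 1227, 1593 and 1627 and 895, 929.3 and 926 CPM (log2 fold change -0.69, adjusted p = 3.6e-04), the elastic fibre protein Fbln5, at 384, 407 and 410.3 and 252, 285 and 262 CPM (log2 fold change -0.59, adjusted p = 8.6e-05), and the CCN protein Wisp2, at 36.8, 32.8 and 29.4 and 18.7, 16.3 and 18.1 CPM (log2 fold change -0.90). Fn1, fibronectin, did not pass (0.04). Spp1, osteopontin, which fibroblasts also express, was at 958, 761 and 725 CPM in WT medium and 1417, 914 and 1285 CPM in the other. Replicate 2 of the medium labelled PHD2cko lay within the range of WT medium, and the log2 fold change of 0.57 (adjusted p = 0.019) passed in 2 of 6 fits that left out a library. Of 20 integrins and osteopontin receptors 1 was higher (Itga6, 0.35) and 2 lower (Itgb5, -0.47, and Itga8, -0.50). These shares, 5.0% and 10.0%, are near the 5.05% and 7.32% of all members. With a library left out 1 to 2 were higher (2 without WT 1 or cko 2) and 2 to 5 lower (5 without WT 1).

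Among 21 proteoglycans and genes of hyaluronan, 5 were higher (3 without WT 2 or cko 3) and 4 lower (2 without cko 3, 2 in the fibroblast libraries alone). Has2, the main hyaluronan synthase of fibroblasts, rose from 15.5, 16.03 and 19.8 to 25.4, 29.2 and 27.2 CPM (log2 fold change 0.67, adjusted p = 0.0012), and the collagen-binding decorin (Dcn, 0.47) and lumican (Lum, 0.29) were higher, whereas Ogn (-0.31) and the glypicans Gpc1 (-0.23) and Gpc4 (-0.34) were lower. Of 30 matrix metalloproteinases and inhibitors, 8 were lower and 4 higher (2 without WT 2 or cko 3, 2 in the fibroblast libraries alone), Mmp9, Adamts7 (0.49), Adam17 (0.22) and Ctsl (0.20). Lower were Mmp2 (942, 929.6 and 945 to 751, 735 and 752 CPM, log2 fold change -0.33), its activator Mmp14 (-0.26), the inhibitor Timp2 (-0.30), Adamts1 (-0.41), Adamts5 (-0.32) and the serpin Serpine2 (-0.51). Timp4, also lower, was at or under 1.07 CPM in every library. Of 19 basement membrane genes 1 was higher, Col15a1, and 1 lower, Lama5 (-0.61), but 8 were lower without WT 1 and 0 without WT 2, WT 3, cko 2 or cko 3, and 2 were higher without WT 1 or WT 3. In the main fit the share was 5.26% in each direction, near the 5.05% higher and 7.32% lower of all members.

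**Figure D5:**
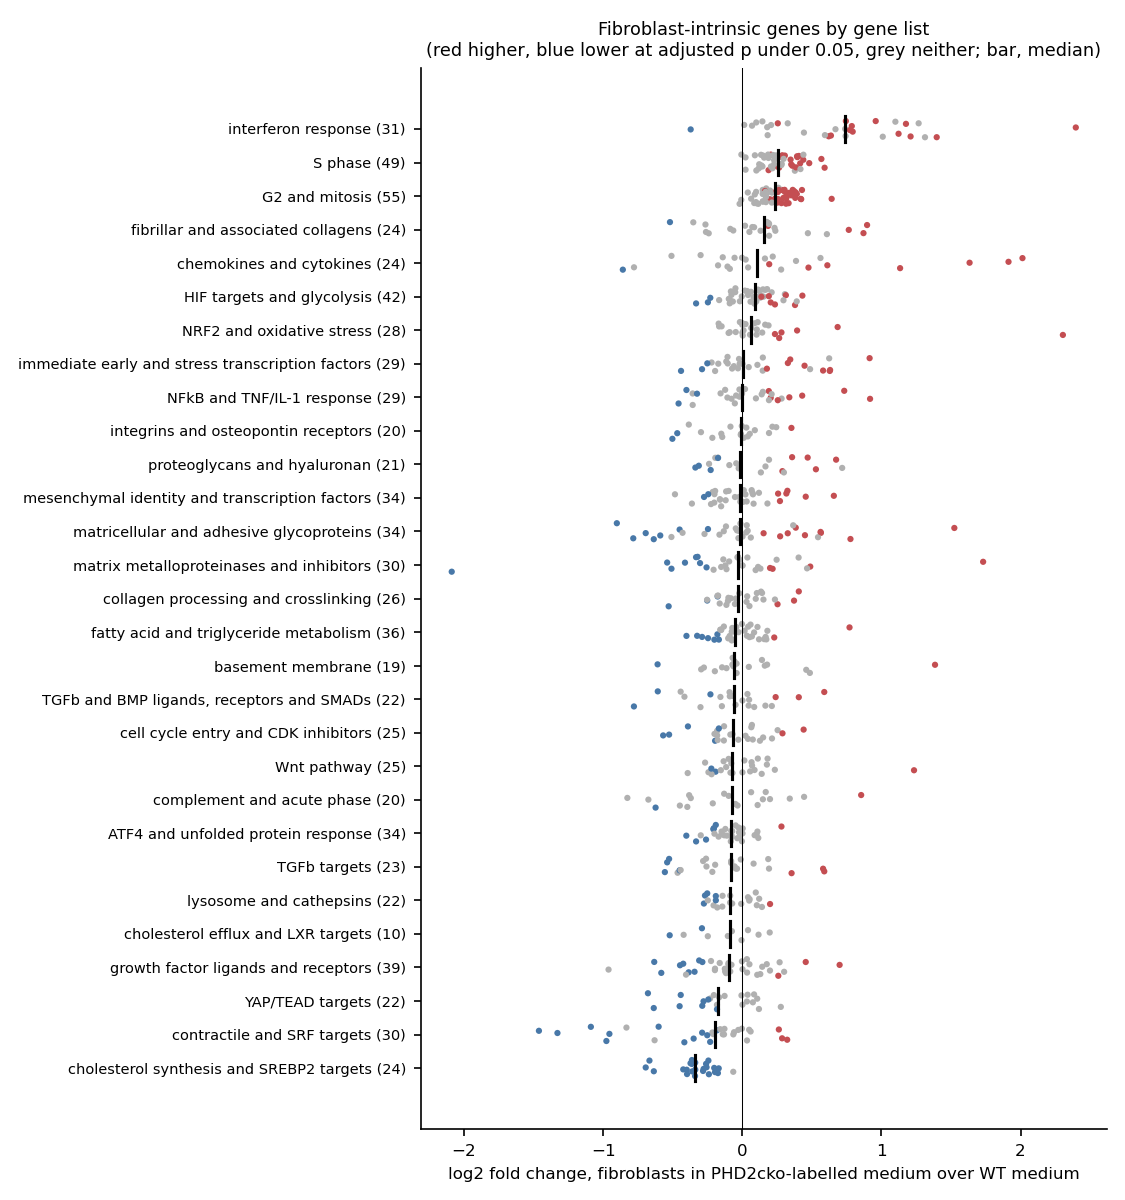
Every point is a fibroblast-intrinsic gene, placed at its log2 fold change (medium labelled PHD2cko over WT medium) in the row of its list, with the number of genes in brackets and a bar at the median. Rows are ordered by median, from interferon response at 0.74 to cholesterol synthesis at -0.34. Red and blue points passed the threshold.

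Genes that fibroblasts express and BMDMs hardly do were also taken on their own. The 5 with the lowest adjusted p among those higher, with BMDMs at under 0.1 times the fibroblast level and at least 50 CPM in either group, were Cd34, Angptl4, Agtr2, Aqp1 and Trabd2b. Cd34, a sialomucin of stromal progenitors, was at 127, 123 and 122 CPM in WT medium and 189, 207 and 192 CPM in the other (log2 fold change 0.66, SE 0.066, adjusted p = 7.9e-05). Agtr2, the type 2 angiotensin receptor, rose from 105, 98.1 and 116 to 203, 218 and 197 CPM (log2 fold change 0.96, SE 0.069, adjusted p = 9.8e-05) and had no BMDM counts. For neither gene did the groups overlap. The water channel Aqp1 and the Wnt-cleaving protease Trabd2b had log2 fold changes of 0.53 and 0.46. Lower by the same rule were Acta2, Rcan2, Daam2, a formin of Wnt signalling (144, 157 and 161 to 98.04, 98.7 and 95.8 CPM, log2 fold change -0.66), Cdo1, cysteine dioxygenase (70.3, 64.1 and 64.6 to 42.3, 46.2 and 41.6 CPM, log2 fold change -0.61), and Serpine2. These 10 genes passed the threshold in all 8 alternative settings and in all 6 fits that left out a library. Among 34 genes of mesenchymal identity, 6 were higher (3 without WT 2, cko 1, cko 2 or cko 3), Cd34, Pdgfra (805, 937 and 996 to 1232, 1269 and 1255 CPM, log2 fold change 0.46), Zeb1, Zeb2, Sox9 and Osr2, and 2 lower (0 to 5 with a library left out, 0 without cko 3, 5 without WT 1, 4 with limma-voom), Thy1 (-0.27) and Foxf2 (-0.24).

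Interferon-stimulated genes showed the widest spread between libraries. They are switched on by STAT and IRF factors downstream of interferon receptors in almost any cell. Of 31 that were fibroblast-intrinsic, 13 were higher and 1, Isg20, lower, with a median of 0.74 on the log2 scale. These are 41.9% and 3.23%, beside 5.05% and 7.32% of all members. Of 18 that were macrophage-type 15 were higher, beside 51.2% of all macrophage-type genes. Ifit1, an RNA-binding antiviral protein, was at 3.82, 4.06 and 4.76 CPM in WT medium and 50.2, 5.26 and 10.5 CPM in replicates 1, 2 and 3 of the medium labelled PHD2cko, of which replicate 2 was barely above WT medium (log2 fold change 2.40, SE 0.65, adjusted p = 0.026). Isg15, a ubiquitin-like protein, was at 6.003, 5.77 and 4.44 and 27.4, 5.26 and 9.98 CPM. Trim30a, which had the lowest adjusted p, was at 22.2, 23.8 and 20.8 and 50.7, 30.8 and 32.9 CPM (log2 fold change 0.77, adjusted p = 0.005). Of the 31, 28 had their highest value in replicate 1, and replicate 2 was above the range of WT medium in 8, within it in 12 and below it in 11. The count called followed single libraries, with 24 higher without replicate 2 of the medium labelled PHD2cko and 4 to 9 when any other library was left out, and was 5 with limma-voom, 8 with the replicate block, 16 with DESeq2 and 1 in the fibroblast libraries alone. The macrophage share was lowest in replicate 2 too, at 0.536%. After subtraction of the share, 11 of the 31 were higher and 1 lower, at a median of 0.72. The part of carried-over RNA in this spread was not tested. In BMDMs the same 31 genes had a median of -0.50 for the PHD2cko label.

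Chemokines and cytokines had 7 higher (3 without cko 3, 4 without WT 2) and 1 lower (0 to 1 with a library left out) of 24 fibroblast-intrinsic genes. These are 29.2% and 4.17%, beside 5.05% and 7.32% of all members. Of 14 macrophage-type ones 11 were higher, beside 51.2% of all macrophage-type genes. Ccl2, which draws monocytes, reached 26.9, 15.7 and 37.6 CPM from 9.77, 5.69 and 6.13 CPM. Cx3cl1, fractalkine, went from 34.6, 36.8 and 38.9 to 47.4, 51.8 and 54.1 CPM (log2 fold change 0.48, adjusted p = 0.0014) with BMDMs at 0.0131 times the fibroblast level. The eotaxin Ccl11 and Ccl5 were higher too (1.63 and 2.01), though below 3 CPM in all 6 libraries. Ccl7 (0.61) and Cxcl12 (0.19) were higher, and the neutrophil attractant Cxcl5 fell from 29.2, 22.8 and 18.02 to 14.2, 8.74 and 15.4 CPM (log2 fold change -0.86). Of 29 genes of the NFkB response 7 were higher (4 without WT 2 or cko 3, 2 in the fibroblast libraries alone) and 3 lower (0 to 4 with a library left out, 0 without cko 2, 1 without WT 2 or cko 3, 1 in the fibroblast libraries alone). Nfkbia, the inhibitor that NFkB itself induces, was at 16.7, 15.5 and 14.5 and 24.7, 20.7 and 31.9 CPM (log2 fold change 0.73, adjusted p = 0.0017). Among complement and acute phase genes, C3 was higher (84.9, 104 and 95.3 to 147, 111 and 257 CPM, highest in replicate 3) and the pentraxin Ptx3 lower (153, 123 and 123 to 86.8, 85.8 and 86.7 CPM, log2 fold change -0.62). They were the 2 of 20 past the threshold, but 2 were lower without WT 1 and 3 with limma-voom. In the main fit the share was 5.0% in each direction, near the 5.05% higher and 7.32% lower of all members.

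More growth factor genes were lower than higher, with 3 higher (2 to 5 with a library left out, 5 without WT 3) and 8 lower (13 without WT 1) of 39. These are 7.69% and 20.5%, beside 5.05% and 7.32% of all members. By sign alone, 14 were above 0 and 25 below, at a median of -0.10. Igf2, an embryonic growth factor, rose from 998, 1135 and 1328 to 1674, 1968 and 1979.8 CPM (log2 fold change 0.70, SE 0.11, adjusted p = 9.9e-04), and the receptors Pdgfra and Met (0.26) were higher. Fgfr2 fell from 49.2, 49.8 and 48.6 to 35.9, 30.8 and 31.96 CPM (log2 fold change -0.58), and Flt1 (-0.63), Bdnf (-0.42), Igfbp4 (-0.45), Figf (-0.38), Pdgfc (-0.31), Fgf7 (-0.29) and Vegfb (-0.34) were lower. Of the immediate early and stress factors 8 of 29 were higher (4 without cko 1 or cko 3, 5 without WT 2 or cko 2, 5 in the fibroblast libraries alone) and 3 lower (1 to 3 with a library left out, 1 without WT 3, cko 1 or cko 3, 1 in the fibroblast libraries alone, 1 after subtraction, 1 with DESeq2). Higher were the ERK phosphatase Dusp6 (16.99, 15.5 and 16.02 to 25.7, 22.97 and 26.2 CPM, log2 fold change 0.63), Dusp4 (0.92), Spry2 (0.33), Spred1 (0.18), Etv5 (0.45), Egr1 (0.35), Junb and Klf10 (0.63). Lower were Spry1 (-0.25), Klf6 (-0.29) and Nr4a1 (-0.44), and Spry4 (0.00), Spred2 (0.11), Dusp5 (-0.10) and Etv4 (0.15) did not pass.

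Targets of TGFb, the main inducer of myofibroblasts, were 3 higher and 4 lower (2 without WT 2, cko 1 or cko 3) of 23, with a median of -0.08. Among the lower ones were Pmepa1, an inhibitor of its signalling (log2 fold change -0.56), Ctgf and Cdkn1a, while Junb (0.58), Id2 (0.35) and Tgfbr1 (0.59) were higher. Of 22 genes on a list of TGFb and BMP ligands, receptors and SMADs, which also holds the proteinase Bmp1, 3 were higher, the receptors Tgfbr1 (36.3, 39.97 and 43.03 to 60.6, 59.9 and 59.1 CPM, adjusted p = 6.8e-05) and Tgfbr2 (0.24) and Bmp1, and 3 lower (5 with limma-voom), among them the BMP antagonist Grem1 (-0.78) and Smad1 (-0.23). Of 25 Wnt genes 1 was higher (1 to 2 with a library left out) and 2 lower (0 to 3 with a library left out, 0 without cko 1 or cko 3, 0 in the fibroblast libraries alone). These shares, 4.0% and 8.0%, are near the 5.05% and 7.32% of all members. The transcription factor Tcf7 (1.23) was higher, and the secreted Dkk3 (-0.22) and the receptor Fzd1 (-0.19) lower.

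HIF targets and glycolysis had a median of 0.09, with 7 of 42 higher (3 without WT 2, 4 without cko 1 or cko 3, 17 without WT 1, 1 in the fibroblast libraries alone) and 3 lower (1 in the fibroblast libraries alone), among the higher Pdk1, a mitochondrial kinase that inhibits pyruvate dehydrogenase, at 56.01, 56.00 and 55.1 and 70.5, 73.5 and 73.4 CPM (log2 fold change 0.38, adjusted p = 1.4e-04) and Pgk1 at 0.31. Vegfa (-0.08) and Slc2a1 (-0.05) did not pass, and the lactate transporter Slc16a1 was lower (-0.23). In BMDMs this list had a median of 0.31 for the PHD2cko label. Genes of NRF2 and oxidative stress were 6 higher (2 without WT 2, cko 1 or cko 3, 11 without WT 1, 3 in the fibroblast libraries alone) and 0 lower of 28, among them both metallothioneins, Nqo1 (0.39) and Pgd (0.27). At an unadjusted p under 0.05, 7 were higher and 2 lower, and limma-voom and DESeq2 each called 6 higher and 0 lower. ATF4 targets and the unfolded protein response had a median of -0.08, with 1 of 34 higher (0 to 2 with a library left out) and 6 lower (1 without cko 3, 3 without cko 1, 1 in the fibroblast libraries alone, 3 with no filter on low counts), among the lower Ddit3, the stress factor CHOP, at 71.4, 59.6 and 62.6 and 48.7, 48.5 and 49.2 CPM (log2 fold change -0.40, adjusted p = 0.0012). Lysosomal genes had 1 higher (0 to 3 with a library left out, 3 without WT 1) and 5 lower (2 in the fibroblast libraries alone, 10 after subtraction, 3 with no filter on low counts) of 22 fibroblast-intrinsic members. These are 4.55% and 22.7%, beside 5.05% and 7.32% of all members. The median of the 22 was -0.09, and -0.18 after subtraction. Of 12 macrophage-type ones 5 were higher, beside 51.2% of all macrophage-type genes.

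The effect of the label was also compared between fibroblasts and BMDMs, as an interaction in the same fit, with no library shared between the effects. It differed for 12.3% of all genes tested and for 1146 of the 13081 fibroblast-intrinsic genes (8.76%), among them 218 of the 660 higher and 332 of the 958 lower ones.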

How the data were processed

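The authors sequenced BMDMs 24 h after seeding and fibroblasts after 72 h of exposure, and deposited 1 table of estimated counts per gene, made with Kallisto on GRCm38 and given as whole numbers without normalization or filter. From these, genes were kept with filterByExpr over the 4 groups, scaled by TMM and fitted over all 12 libraries with the quasi-likelihood test of edgeR 4.0.16 (R 4.3.3), two-sided, with Benjamini-Hochberg adjustment over the 14285 genes tested and a threshold of 0.05. CPM of single genes use TMM library sizes. The share of macrophage RNA is the summed CPM of 23 markers over that sum in BMDMs of the same label, and its product with the BMDM profile was subtracted in one alternative. In a fibroblast library 3 counts came to at most 0.193 CPM. limma 3.58.1, DESeq2 1.42.0, other filters, 0.5 CPM offsets for plots and fits without single libraries are alternatives. 29 lists were written by hand and 3 more (zinc, p53, alpha-arrestins) after values were seen, and the fibroblast-intrinsic rule, members and lists were all chosen with earlier results of these data known. Named genes are, per direction, the 10 of largest change with at least 5 CPM and no overlap, up to 4 per list with the lowest adjusted p, and 5 with at least 50 CPM and BMDMs under 0.1 times the fibroblast level. Other genes that passed the threshold within a list, and those given as not passing, were named after their values were seen. Positions come from GENCODE M21, which matched 13853 of the genes tested, and promoters from RefSeq GRCm38.p6. The scripts were tested on simulated data. Some genes and an allele shared by all macrophages are not reported here.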

Additional observations from a re-analysis of the deposited data

Results flagged for a closer look

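For 8 of the 20 fibroblast-intrinsic genes of largest change, the effect of the label differed between fibroblasts and BMDMs (interaction term, adjusted p under 0.05, edgeR). Over all fibroblast-intrinsic genes tested it differed for 8.76%. The 20 were chosen by their fold change in fibroblasts, which enters the difference, so a larger share follows in part from the choice. As the difference of log2 fold changes, fibroblasts minus BMDMs, this was 6.42 for the pseudogene Rpl30-ps9, 3.74 for Ifit1, 2.43 for Ccl2, 1.68 for Txnip, 1.67 for Mt2, 1.47 for Arrdc4, 1.39 for Col15a1 and -1.07 for Atg16l2. In BMDMs, the log2 fold change of Ifit1 was -1.34 and that of Ccl2 -0.52, while Txnip and Mt2 had 0.28 and 0.63.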

How the results depend on the processing

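Replicate numbers did not pair the libraries (correlations of same-numbered deviations of 0.022, 0.024 and -0.050), and with the replicate block 543 fibroblast-intrinsic genes were higher and 832 lower. The 6 fibroblast libraries alone gave 276 higher and 346 lower, with 290 and 0 among macrophage-type genes. With each library left out in turn, fibroblast-intrinsic genes ran from 304 to 1105 higher and from 459 to 1069 lower, macrophage-type genes from 480 to 699 higher and from 4 to 5 lower, the genes whose label effect differed from that in BMDMs from 776 to 1729, and the difference in macrophage share from 1.27 to 2.19 percentage points. Most calls were lost without replicate 3 (304 and 459) or 1 (344 and 491) of the medium labelled PHD2cko, and most gained without replicate 1 in WT medium (1105 higher). Macrophage-type genes were 206 higher when 10 counts were asked of every fibroblast library, and 305 higher and 81 lower after subtraction of the macrophage share. With a limit of 3 or 30 in place of 10, 38 and 0 of them were lower. Contractile genes were 7 to 14 lower and YAP/TEAD targets 3 to 10 when a library was left out. Of the genes named by rule, 97 of 122 passed in every alternative as in the main test and 100 in every fit without a library, and none turned its direction. DESeq2 size factors moved the median of all genes by 0.0094 on the log2 scale. The depth limits low genes, and genes near the threshold depend on the fit.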
